A study of Mus musculus with 22 samples.

Results

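The genes of the nuclear pore and of the carriers that pass through it were examined for nearby binding sites of CREB1 and C/EBP beta, both leucine zipper transcription factors, in mouse collecting duct cells. The group held 51 of 21631 protein-coding genes. Of these, 43 had a symbol made of Nup, Kpna, Kpnb, Ipo, Xpo or Tnpo and a number, with Nup210l and Nup62cl included, and 8 were added by name (Tpr, Ranbp2, Ndc1, Pom121, Sec13, Seh1l, Rae1 and Aaas). A gene counted as near a site when a peak centre lay within 5000 bp of either gene end. In at least 1 peak list 13 of the 51 genes met this, against 2032 of all genes (9.39%). That distance chose the genes described, so the counts by distance are a description and carry no test.

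Chromatin immunoprecipitation with sequencing was done on mpkCCD cells (clone 11), a single clone of a mouse cortical collecting duct line that answers to vasopressin, grown on permeable supports and kept in medium without serum or hormones before treatment. The groups were CREB1 after 30 min of 0.1 nM dDAVP, a vasopressin analog selective for the V2 receptor (4 samples), CREB1 after 30 min of vehicle (4 samples), C/EBP beta after dDAVP (2 samples) and C/EBP beta after vehicle (2 samples). Input libraries without antibody were made for both treatments (10 samples), and 2 of them served both antibodies. One peak list was analysed per antibody and treatment, so no value has a replicate error, the read depth is unknown, and the lack of a peak in a list says that none was called, not that the site was unbound.

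Nuclear pores are large protein channels in the nuclear envelope. Scaffold rings, among them the Y complex and the inner ring, hold nucleoporins whose phenylalanine-glycine repeats fill the channel, while filaments reach into the cytoplasm and a basket reaches into the nucleus. Importins, transportins and exportins carry proteins and RNA through the channel, with direction given by the small GTPase Ran. CREB1 binds the cAMP response element (CRE), TGACGTCA, and also its shorter core TGACG.

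The starts of 8 genes of the group held the centre of a CREB1 peak, and their sequences are shown because each has the CRE core inside the peak. Each line gives 220 bases from RefSeq (mm10), from 200 bases before the transcription start to 20 bases from the start on, read 5′ to 3′ along the gene. Capitals mark TGACG on either strand, so that CGTCA is the core on the opposite strand and TGACGTCA is a full CRE, which is the core on both strands.
Tpr: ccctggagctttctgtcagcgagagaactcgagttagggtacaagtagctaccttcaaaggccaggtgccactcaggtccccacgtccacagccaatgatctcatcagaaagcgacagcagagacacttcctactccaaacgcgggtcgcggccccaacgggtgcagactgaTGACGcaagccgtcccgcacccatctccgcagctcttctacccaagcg
Nup153: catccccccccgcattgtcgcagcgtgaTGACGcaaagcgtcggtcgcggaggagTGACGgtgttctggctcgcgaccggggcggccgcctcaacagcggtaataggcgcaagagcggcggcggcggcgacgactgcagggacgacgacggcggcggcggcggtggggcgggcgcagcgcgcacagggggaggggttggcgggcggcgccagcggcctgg
Ranbp2: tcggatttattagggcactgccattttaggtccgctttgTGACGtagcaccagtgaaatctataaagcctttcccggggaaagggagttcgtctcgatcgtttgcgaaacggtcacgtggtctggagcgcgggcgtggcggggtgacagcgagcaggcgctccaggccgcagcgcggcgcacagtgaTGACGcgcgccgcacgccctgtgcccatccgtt
Nup214: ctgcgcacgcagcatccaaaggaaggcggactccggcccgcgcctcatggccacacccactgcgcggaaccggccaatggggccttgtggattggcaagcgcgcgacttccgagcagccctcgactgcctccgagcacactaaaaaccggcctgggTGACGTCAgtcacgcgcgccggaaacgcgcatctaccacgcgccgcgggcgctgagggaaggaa
Nup133: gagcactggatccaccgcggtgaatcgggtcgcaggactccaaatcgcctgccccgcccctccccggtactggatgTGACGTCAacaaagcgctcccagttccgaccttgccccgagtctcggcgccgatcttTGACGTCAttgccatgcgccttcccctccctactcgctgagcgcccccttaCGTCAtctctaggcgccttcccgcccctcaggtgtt
Nup155: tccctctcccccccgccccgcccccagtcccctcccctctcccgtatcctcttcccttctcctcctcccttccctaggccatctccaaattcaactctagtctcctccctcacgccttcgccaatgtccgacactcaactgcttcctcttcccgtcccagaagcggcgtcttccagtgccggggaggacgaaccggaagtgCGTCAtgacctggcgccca
Ipo11: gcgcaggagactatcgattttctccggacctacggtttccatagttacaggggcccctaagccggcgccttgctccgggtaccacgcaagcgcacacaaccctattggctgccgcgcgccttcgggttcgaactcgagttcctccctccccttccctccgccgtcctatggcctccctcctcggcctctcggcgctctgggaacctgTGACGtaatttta
Pom121: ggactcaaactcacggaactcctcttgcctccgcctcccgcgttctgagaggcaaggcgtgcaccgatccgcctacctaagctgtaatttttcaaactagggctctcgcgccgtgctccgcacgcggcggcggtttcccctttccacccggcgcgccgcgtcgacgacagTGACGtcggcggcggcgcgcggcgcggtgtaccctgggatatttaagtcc
The stretches lie at chr1:150392638-150392857 for Tpr (plus strand), chr13:46727830-46728049 for Nup153 (minus strand), chr10:58446652-58446871 for Ranbp2 (plus strand), chr2:31974250-31974469 for Nup214 (plus strand), chr8:123949246-123949465 for Nup133 (minus strand), chr15:8109113-8109332 for Nup155 (plus strand), chr13:106936939-106937158 for Ipo11 (minus strand) and chr5:135394527-135394746 for Pom121 (minus strand).

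CREB1 peaks were near 7 of the 51 genes after dDAVP (13.7%) and near 10 after vehicle (19.6%). Among all protein-coding genes, 2.67% were near a CREB1 peak after dDAVP and 5.05% after vehicle. C/EBP beta peaks were near 3 of the 51 genes after dDAVP (5.88%, against 5.01% of all genes) and near 0 of 51 after vehicle (against 0.513%, or 111 genes). The CREB1 share in the group was thus above that of all genes in both lists, and the C/EBP beta share after dDAVP was close to it. No gene of the group had peaks of both factors, a combination that 153 of all genes (0.707%) had.

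**Figure D1:**
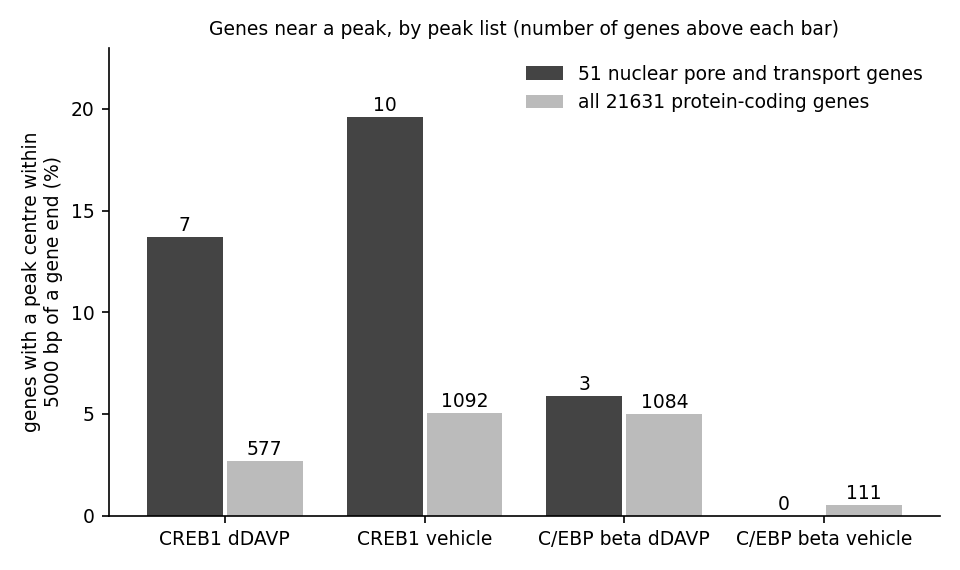
Percent of genes with a peak centre within 5000 bp of a gene end in each of the 4 peak lists, for the 51 nuclear pore and transport genes (dark bars) and all 21631 protein-coding genes (light bars), with the number of genes above each bar. The dark bars are at 13.7% and 19.6% for CREB1 after dDAVP and vehicle, where the light bars are at 2.67% and 5.05%; for C/EBP beta after dDAVP the bars are at 5.88% and 5.01%.

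By place in the pore, the counts by gene ends are over small sets and are set against shares of 2.67% of all genes for CREB1 after dDAVP and 5.05% after vehicle. Of the nuclear basket genes, 2 of 3 had a CREB1 peak in both lists, as did 2 of 6 genes of the cytoplasmic face, 1 of 8 of the Y complex and 1 of 5 of the inner ring. Of the 4 membrane ring genes 1, Nup210l, had a CREB1 peak within 5000 bp of a gene end, after vehicle alone, and another, Pom121, had one after dDAVP at a start inside the gene, which these counts leave out. None of the 3 central channel genes had one. Among the carriers, 1 of 6 importin alpha genes had a CREB1 peak in both lists and 2 of 8 importin beta genes had one after vehicle and none after dDAVP. The peaks counted for Kpna1, Ipo7 and Nup210l lay nearer to other genes. The exporters Cse1l and Xpot are outside the group by symbol and are described below. Neither the 5 exportin genes nor the 3 transportin genes of the group had a peak of either factor within 5000 bp in any list. Over all genes 9.39% had one, so finding none in sets this small does not set these carriers apart.

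**Figure D2:**
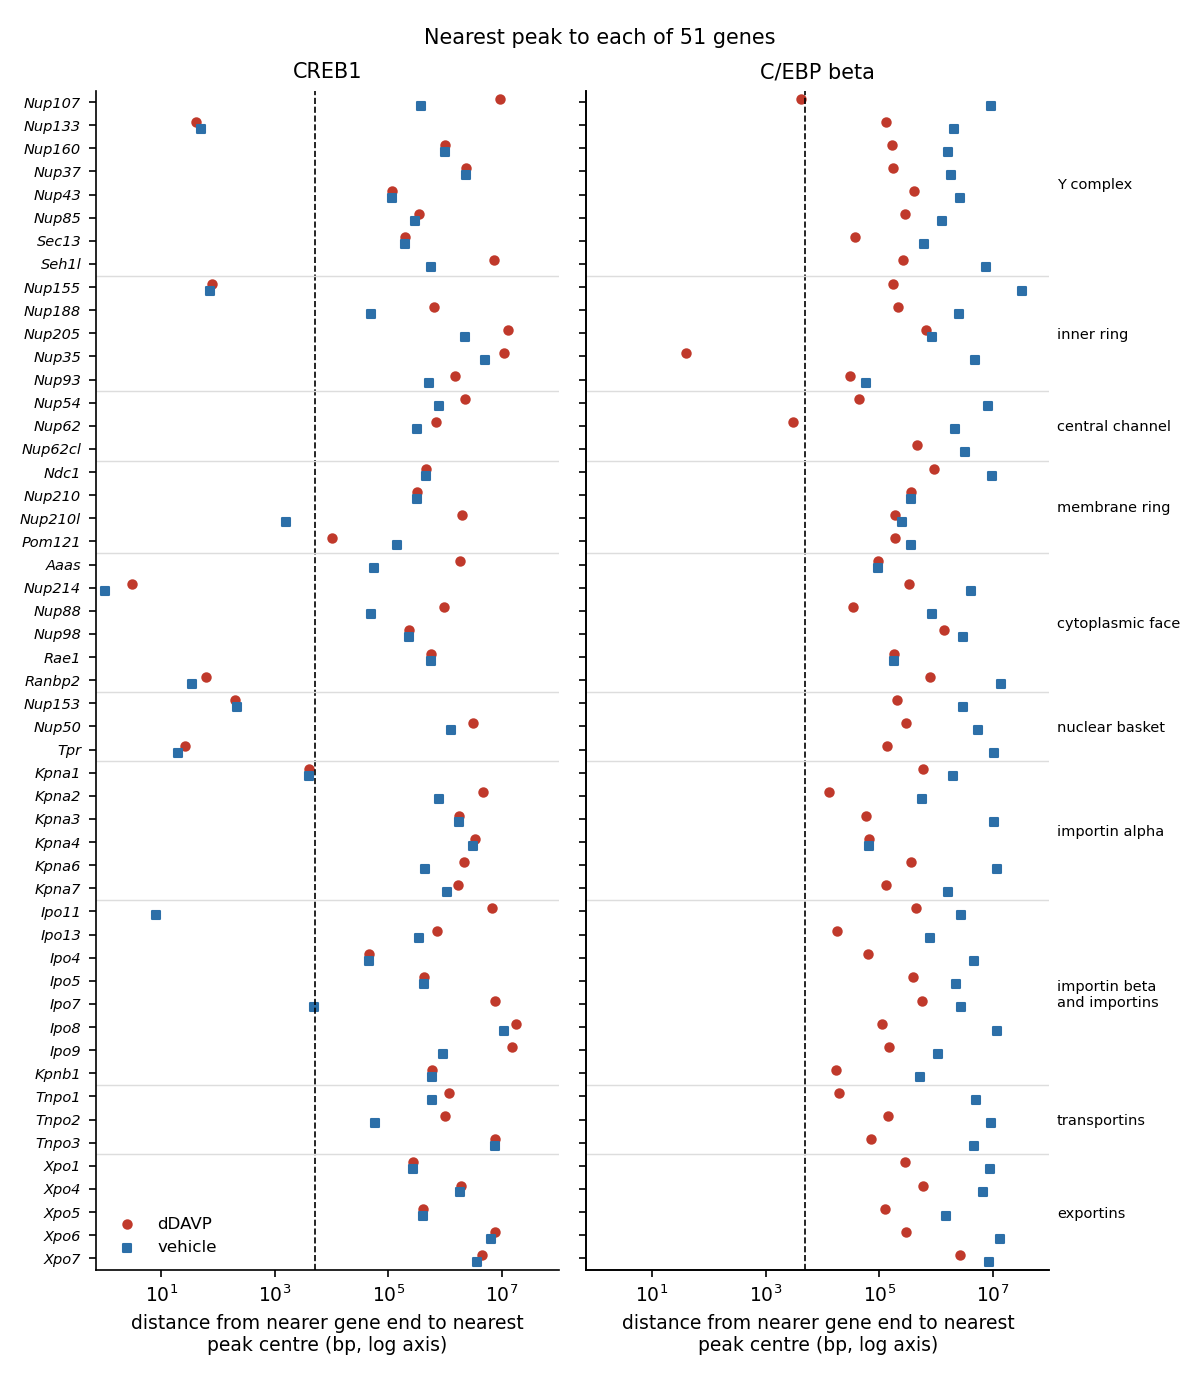
Distance from the nearer gene end to the nearest peak centre for each of the 51 genes, in bp on a log axis, with CREB1 at left, C/EBP beta at right, dDAVP as circles and vehicle as squares; the dashed line is at 5000 bp and genes are grouped by place in the pore. For CREB1 a set of genes lies under 250 bp and most others lie beyond 50000 bp, while for C/EBP beta 1 gene, Nup35, lies under 250 bp. Nup62cl has no CREB1 point because neither CREB1 list held a peak on the X chromosome.

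The nuclear basket had CREB1 peaks at Tpr, which builds the basket filaments, and at Nup153, which anchors the basket and docks importins. The Tpr peak spanned chr1:150392600-150392952 after dDAVP and chr1:150392550-150393093 after vehicle, with centres 62 and 16 bp upstream of the transcription start. At 353 bp the dDAVP peak was the 38th widest of 406, and at 544 bp the vehicle peak was the 9th widest of 785. The next gene, Odr4, had an end 304 bp from the centre after dDAVP and 258 bp after vehicle. The Nup153 peak spanned chr13:46727899-46728203 (305 bp) after dDAVP and chr13:46727881-46728255 (375 bp) after vehicle. Its centre lay 202 bp upstream of the start after dDAVP and 219 bp after vehicle, the farthest from the start among the 8 genes. Nup50, the third basket gene, had no CREB1 peak within 1 Mb in either list.

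At the cytoplasmic face, CREB1 peaks stood at Ranbp2, the Ran-binding filament protein also called Nup358, and at Nup214, which takes part in mRNA export. The Ranbp2 peak was 439 bp wide after dDAVP (chr10:58446573-58447011), the 2nd widest of that list, and 458 bp wide after vehicle (chr10:58446589-58447046), the 40th widest. Its centre lay 60 bp upstream of the start after dDAVP and 34 bp after vehicle, and the next protein-coding gene, Lims1, had its end 22101 bp away after dDAVP and 22127 bp after vehicle. The Nup214 peak spanned chr2:31974235-31974586 (352 bp) after dDAVP and chr2:31974204-31974613 (410 bp) after vehicle. Its centre lay 39 bp upstream of the transcription start after dDAVP and 41 bp after vehicle, which is 3 and 1 bp from the outermost annotated gene end. The other genes of this face, Nup88, Aaas, Rae1 and Nup98, had none within 5000 bp.

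In the scaffold rings, CREB1 peaks stood at Nup133 of the Y complex and at Nup155 of the inner ring. The Nup133 peak was 380 bp wide after dDAVP (chr8:123949116-123949495) and 440 bp wide after vehicle (chr8:123949095-123949534), centred 41 and 50 bp upstream of the start. The Nup155 peak was among the narrowest of both lists, 170 bp after dDAVP (chr15:8109255-8109424, rank 369 of 406) and 182 bp after vehicle (chr15:8109243-8109424, rank 757 of 785). Its centre lay 27 bp past the start after dDAVP and 21 bp past it after vehicle. The vehicle list held another peak 10003 bp from Nup155, whose centre was 51 bp from an end of Wdr70. Nup107, Nup160, Nup37, Nup43, Nup85, Sec13 and Seh1l of the Y complex and Nup188, Nup205, Nup35 and Nup93 of the inner ring had no CREB1 peak within 5000 bp.

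Among the carriers, Ipo11, an importin beta family member that imports ubiquitin-conjugating enzymes, had a CREB1 peak over its start after vehicle. That peak spanned chr13:106936820-106937079 (260 bp) with its centre 8 bp past the start, and the dDAVP list had none within 6 Mb. The remaining 3 CREB1 calls lay nearer to another gene than to the pore or carrier gene. A peak 4021 bp after dDAVP and 4046 bp after vehicle beyond the higher-coordinate end of Kpna1, an importin alpha adaptor for classical import signals, was centred 33 and 8 bp from the start of the WD repeat gene Wdr5b. An end of Fam162a was also nearer to it, at 2687 bp after dDAVP and 2662 bp after vehicle. A vehicle peak 4908 bp past the far end of Ipo7, an importin of ribosomal proteins and histones, lay 185 bp upstream of the start of the zinc finger gene Zfp143. A vehicle peak 1573 bp beyond the higher-coordinate end of Nup210l, a paralog of the membrane nucleoporin Nup210, lay 9 bp past the start of Rab13 and 76 bp upstream of the start of Rps27. That site therefore lay nearer to a Rab GTPase gene and a ribosomal protein gene than to Nup210l.

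Counting a gene only where its own end was the nearest of any protein-coding gene left 6 of 51 for CREB1 after dDAVP (11.8%, against 1.79% of all genes) and 7 of 51 after vehicle (13.7%, against 3.43%). A distance of 1000 bp in place of 5000 bp left the same genes, with 6 after dDAVP (against 2.11% of all genes) and 7 after vehicle (against 3.94%). These were Tpr, Nup153, Ranbp2, Nup214, Nup133 and Nup155 in both lists and Ipo11 in the vehicle list. Just inside 5000 bp lay Kpna1 (4021 bp after dDAVP), Nup107 (C/EBP beta, 4133 bp) and Ipo7 (4908 bp after vehicle), and the next distances outside were 10003 bp (the other peak near Nup155) and 10244 bp (Pom121).

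Pom121, a nucleoporin that spans the nuclear membrane, fell outside the rule by gene ends and had a CREB1 peak at a transcription start inside its annotated span. The peak covered chr5:135394502-135394691 (190 bp), centred 51 bp upstream of that start and 10244 bp from the outer gene end. The dDAVP list held it, as the 335th widest of 406, while the vehicle peak nearest to Pom121 was 140634 bp away. Of all dDAVP CREB1 peaks, 398 (98.0%) overlapped a vehicle peak. With transcription starts alone counted, available for 41 of the 51 genes, the dDAVP list had 7 genes with a CREB1 peak within 5000 bp (against 2.53% of all genes with a start), Pom121 among them. The vehicle list had 7 as well (against 4.74%), with Ipo11 in place of Pom121.

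Across the treatments, the CREB1 sites of the group were mostly the same places. All 7 genes near a dDAVP peak were near a vehicle peak, and 7 of the 10 near a vehicle peak (70.0%) were near a dDAVP peak. Over all genes, 568 of 577 dDAVP genes (98.4%) had a vehicle peak and 568 of 1092 vehicle genes (52.0%) had a dDAVP peak. Ipo11, Ipo7 and Nup210l were near a peak after vehicle and not after dDAVP. The dDAVP peak at the start of Pom121, which these counts by gene ends leave out, had no vehicle counterpart. The dDAVP list is the shorter one (406 peaks, against 785 after vehicle), and the treatments were not tested against each other since each has a single list.

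The peak at all 7 genes found in both lists was narrower after dDAVP. At Kpna1 it measured 195 bp after dDAVP and 386 bp after vehicle, a ratio of 0.505, and at Tpr 353 and 544 bp, a ratio of 0.649. Ratios at the other 5 genes ran from 0.813 at Nup153 to 0.959 at Ranbp2. The median ratio was 0.859 for the 7 genes and 0.749 for all 396 sites matched between the lists, of which 390 (98.5%) were narrower after dDAVP. Narrowing was therefore general in these lists. Centres moved by 2 bp at Nup214 to 46 bp at Tpr, with a median of 17 bp, against 15 bp over all matched sites.

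Widths also differed by whether a site was found in both treatments. After vehicle, 6 of the 10 peaks of the group were wider than the median of 291 bp for vehicle peaks near a gene, namely those at Tpr, Ranbp2, Nup133, Nup214, Kpna1 and Nup153. The peaks without a dDAVP counterpart, at Ipo11 (260 bp), Nup210l (255 bp) and Ipo7 (239 bp), were all under it, as was that at Nup155. Over all vehicle peaks near a gene, the median was 344 bp for those shared with dDAVP and 244 bp for the others. After dDAVP, 5 of 7 peaks of the group exceeded the median of 250.0 bp, and those at Kpna1 and Nup155 did not.

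**Figure D3:**
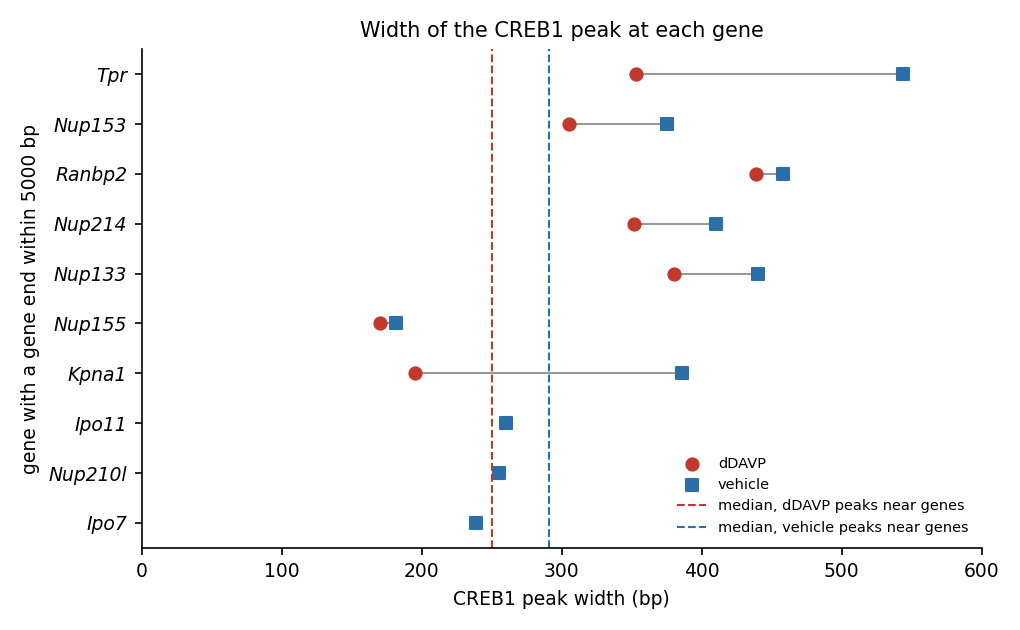
Width in bp of the CREB1 peak near each of 10 genes after dDAVP (circles) and vehicle (squares), with dashed lines at the median width of peaks near genes (250.0 bp after dDAVP, 291 bp after vehicle). In every gene with both points the circle lies left of the square, from 439 against 458 bp at Ranbp2 to 195 against 386 bp at Kpna1; Ipo11, Nup210l and Ipo7 have a vehicle point alone.

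The CRE core was found in the searched window of all 8 starts that held a CREB1 peak centre. The search covered both strands of 300 bases per start, from 250 bases before it to 50 from it on, in 48 RefSeq starts of 41 genes of the group. TGACG was present at 8 of 8 starts with a CREB1 peak centre and at 14 of 40 without one (35.0%). Among all 21045 starts of protein-coding genes 23.8% had it, and it was at 92.8% of 374 starts with a dDAVP CREB1 peak centre and 90.9% of 683 with a vehicle one. The 14 starts with the core and no CREB1 peak centre belonged to Ipo4, Ipo5, Ipo9, Kpna2, Kpna7, Ndc1, Nup54, Nup98, Rae1, Tnpo3, Xpo1 and Xpo5. A match describes the letters and does not show a bound site.

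The full CRE, TGACGTCA, was at 2 of the 8 starts with a CREB1 peak, Nup214 and Nup133, and at 0 of the 40 others. It was at 2.26% of all starts, 29.7% of starts with a dDAVP CREB1 peak centre and 26.1% of those with a vehicle one. Nup214 had a single full CRE, from 44 to 37 bases before the start, whose middle was 1.5 bp from the dDAVP peak centre and 0.5 bp from the vehicle one. Nup133 had a pair of full CREs, from 124 to 117 and from 67 to 60 bases before the start, and a further core at 16 to 12 bases before it. The nearer full CRE was 22.5 bp from the dDAVP centre and 13.5 bp from the vehicle centre.

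At the other 6 starts the core went on with other letters. Read along the strand of the match, it continued as TGACGCAA at Tpr and at 1 of the 2 Nup153 matches, TGACGGTG at the other Nup153 match, TGACGTAA at Ipo11, TGACGCAC at Nup155 and TGACGTCG at Pom121. Ranbp2 had TGACGTAG, TGACGCGC and, past the printed stretch, TGACGCAG. A longer run, TGATGACGC, was noticed in the printed sequences of Tpr, Nup153 and Ranbp2 and searched for afterwards. It was at 3 of the 8 starts and at 0 of the 40 others, at 0.333% of all starts, 7.49% of starts with a dDAVP CREB1 peak centre and 5.12% of those with a vehicle one. These 3 genes were picked by that run, so their count supports nothing, and each TGATGACGC contains a TGACG counted above.

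The core lay close to the middle of the peaks. The nearest TGACG was 0 to 49 bp from the dDAVP peak centre at the 7 starts with a dDAVP peak (Nup214 0 bp, Nup133 21 bp, Pom121 23 bp, Nup155 24 bp, Nup153 32 bp, Tpr 36 bp and Ranbp2 49 bp), a median of 24 bp. From the vehicle centre it was 1 to 49 bp away at the 7 starts with a vehicle peak (Ipo11 1 bp, Nup214 1 bp, Tpr 10 bp, Nup133 12 bp, Nup155 18 bp, Ranbp2 23 bp and Nup153 49 bp), a median of 12 bp. Over all starts with a peak centre and a core, the median was 16 bp after dDAVP and 18 bp after vehicle. At Tpr, Nup133, Nup155 and Ranbp2 the wider vehicle peak was centred nearer to the core than the dDAVP peak, and at Nup153 and Nup214 it was centred farther away. All matches in these windows lay inside the peaks.

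**Figure D4:**
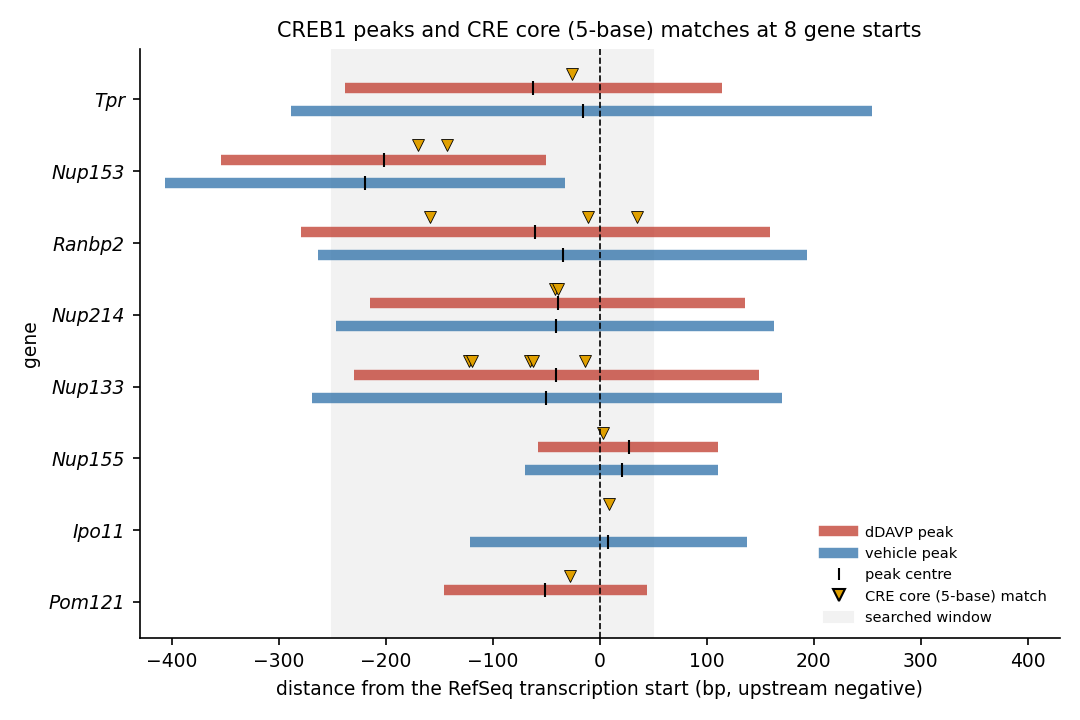
CREB1 peaks at 8 gene starts, drawn as bars by distance in bp from the RefSeq transcription start (upstream negative), dDAVP above vehicle, with a black tick at each peak centre, triangles at each match to TGACG on either strand and the searched window shaded. Every start has a triangle within 49 bp of a peak centre, most starts lie inside the peak, and the Nup153 peak ends 50 bp upstream of the start after dDAVP and 32 bp upstream after vehicle.

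C/EBP beta peaks near the group were in the dDAVP list alone. The same held for 973 of the 1084 genes near a dDAVP C/EBP beta peak, and 10.2% of the 1084 were also near a vehicle peak. The vehicle list was much the shorter (209 peaks, against 2401 after dDAVP). Of the 3 peaks near the group, 1 was at the gene's own end. That peak lay 39 bp outside the lower-coordinate end of Nup35, an inner ring protein also called Nup53 that binds the pore membrane, at chr2:80638594-80638951 (358 bp). Its deposited score of 945 ranked 151st of 2401, above the median of 209 for dDAVP peaks near a gene. The score is the authors' own value per peak, with no stated scale. No CREB1 peak was within 4 Mb of Nup35 in either list, and the nearest vehicle C/EBP beta peak was 4935366 bp away.

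The other C/EBP beta peaks lay nearer to other genes. The peak by Nup62, the channel nucleoporin rich in phenylalanine-glycine repeats, was 3003 bp past its start, inside the gene (chr7:44818970-44819211, score 137, rank 1590). It lay 2433 bp upstream of a start of Atf5, a stress-responsive bZIP factor, and 2721 bp past the start of Il4i1b. The peak 4133 bp past the far end of Nup107, a Y complex protein, lay 130 bp upstream of the start of Slc35e3 (chr10:117746330-117746646, score 396, rank 544). By the nearest gene end or within 1000 bp, Nup35 alone remained (1 of 51, 1.96%), against 3.89% and 2.51% of all genes. After vehicle these rules gave 0 of 51, against 0.407% and 0.254% of all genes. The sequence under the peaks by Nup35, Nup62 and Nup107 was not searched peak by peak. No searched window at a start of the group held one of their centres. The window at the Slc35e3 start, searched among all starts, held the centre of the peak by Nup107. None of the 48 starts of the group in the RefSeq table had the C/EBP palindrome TTGCGCAA, which 0.223% of all starts and 10.0% of 219 starts with a dDAVP C/EBP beta peak centre had. Nor did any have TTGCNNCAA, which was no more frequent at starts with a dDAVP C/EBP beta peak centre (1.83%) than at all starts (1.81%). TTNNNCAA, which includes TTGCGCAA, was at 12 of the 48 (25.0%). It was at 33.5% of all starts and 67.1% of those with a dDAVP C/EBP beta peak centre.

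At longer range the C/EBP beta dDAVP list reached 11 of the 51 genes within 50000 bp, against 18.9% of all genes, and the CREB1 lists reached 9 after dDAVP and 13 after vehicle, against 6.97% and 12.5%. The genes added for CREB1 were Pom121 after dDAVP, Ipo4 in both lists, and Nup188 and Nup88 after vehicle. Apart from that of Pom121, their peaks lay nearer to other genes. These were Tinf2 for Ipo4 (275 bp after dDAVP, 290 bp after vehicle), Lrrc8a for Nup188 (155 bp) and Mis12 for Nup88 (121 bp). The additional C/EBP beta peaks were by Kpna2 (12900 bp), Kpnb1 (17174 bp), Ipo13 (18299 bp), Tnpo1 (19705 bp), Nup93 (30695 bp), Nup88 (34686 bp), Sec13 (37422 bp) and Nup54 (44966 bp). Kpnb1 encodes importin beta, the main carrier of classical import, and Kpna2 one of its adaptors. Each of these peaks lay nearer to another protein-coding gene, such as Dhx33 at 126 bp for the peak by Nup88. No vehicle C/EBP beta peak was within 50000 bp of any of the 51 genes, against 1.96% of all genes.

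Other genes of nuclear transport were taken from a list of 54 symbols, of which 52 were in the gene table. CREB1 peaks were near 8 of the 52 after dDAVP (15.4%) and 9 after vehicle (17.3%), and C/EBP beta peaks near 5 after dDAVP (9.62%) and 1 after vehicle (1.92%), against 2.67%, 5.05%, 5.01% and 0.513% of all genes in the same order. In both CREB1 lists were Cse1l, the exporter of importin alpha, Nupl2, an mRNA export nucleoporin, Ranbp1, a cofactor of Ran GTP hydrolysis, Ranbp6, an importin relative, Senp2, a SUMO protease found at the pore, and Ncbp2, of the mRNA cap-binding complex. After dDAVP their centres were 4 to 250 bp from a gene end, and after vehicle 3 to 271 bp. The Ranbp1 peak was nearer to Trmt2a, at 97 bp after dDAVP and 118 bp after vehicle. The Ncbp2 peak was 22 bp from Ncbp2 and 19 bp from 0610012G03Rik after dDAVP, and 5 and 46 bp from them after vehicle. Gle1, a cofactor of mRNA export, had a CREB1 peak after vehicle alone, 3 bp from its end. The peaks by Nxf1, the mRNA export receptor, and Ddx19b, an RNA helicase of the cytoplasmic face, were 41 bp from an end of Tmem179b and 49 bp from an end of Aars after dDAVP, and so nearer to those genes.

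The C/EBP beta peaks of that list after dDAVP stood by Tmem33 (126 bp), Xpot, the tRNA exportin (509 bp), Rangap1, the activator of Ran GTP hydrolysis (729 bp), Ddx19b (1983 bp) and Lmna, which encodes lamins A and C (4480 bp). Their scores were 220, 153, 160, 964 and 124 in that order. The Ddx19b peak, at chr8:111033562-111033906, was the single one also called after vehicle, with a score of 118 and a centre 1972 bp from the gene end. Scores of the lists may not be on a common scale.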

How the data were processed

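Each antibody and treatment had 1 deposited peak list. BWA, SAMtools, MACS2, bedtools and mm10 are named in the submitters' processing notes, without roles or versions, and no source used here says how replicates were combined. The positions are the peak starts and ends as the authors deposited them; the C/EBP beta lists also carry the authors' score per replicate 1 peak, and peak names that record MACS2 settings (bandwidth 300, 1 duplicate kept, q 0.01). Genes came from the RefSeq table of GRCm38.p6 (mm10), on the autosomes and X, and starts, strand and sequence from its promoter table (41 of 51 genes matched). Positions count from 1, and distances run from the base at the peak's middle. Python 3.11.15, numpy 2.4.6 and pandas 2.3.3 were used, and the distance and motif searches were tested on simulated data. With 1 list per group no test was made, and counts are set against the shares of all genes. Named are all genes of the group with a peak, the listed pathway genes with a peak, and some neighbouring genes; Pom121 and the genes between 5000 and 50000 bp were named after their values were seen. The members and lists were chosen with earlier results of these data known. Whether the cells expressed collecting duct markers cannot be read from peak lists.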

Additional observations from a re-analysis of the deposited data

How the results depend on the processing

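The count of genes near a CREB1 peak after dDAVP stayed between 5 and 9 over 9 alternatives (main value 7), within 1.5 times, while the share of all genes went from 1.35% with the upper 50% of peaks by width to 6.97% at 50000 bp. After vehicle (main value 10) it stayed between 7 and 13 in 8 of 9 and was 6 with the upper 50% of peaks by width, an alternative that drops peaks by construction; the share of all genes was 2.60% there and 12.5% at 50000 bp. The C/EBP beta count after dDAVP (main value 3) was 1 at 1000 bp (against 2.51% of all genes), at 2500 bp (3.75%), with transcription starts alone (4.14%) and by the nearest gene end (3.89%), 11 at 50000 bp (18.9%), and within 1.5 times in the other 4; after vehicle it was 0 in all 9, against 0.25% to 1.96% of all genes. The 1 gene left after dDAVP was Nup35 at 1000 bp, at 2500 bp and by the nearest gene end. With transcription starts alone it was Nup62, of 41 genes, and Nup35 had no start available. The nearest gene end was added after the data were seen. The 7 CREB1 and 0 C/EBP beta dDAVP peaks of the group shared with vehicle were the same in number under both other overlap rules. By the main rule, 98.2% of all CREB1 and 10.0% of all C/EBP beta dDAVP peaks near a gene were shared with vehicle. No paired analysis was possible because each group had a single list, and for the same reason no replicate could be left out. The unknown read depth limits every comparison of lists of unequal length.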
